A study of Mus musculus with 7 samples.

Results

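The genes of the proteasome and its activators were taken as the 45 genes, of 32212 in the deposited expression tables, whose mouse symbol starts with Psma, Psmb, Psmc, Psmd or Psme and goes on with a number. The name pattern matched 46 rows, and the pseudogene Psmb6-ps was left out. The rule uses names and no measured value, but it was set with earlier results of these data known. In 43 of the 45 genes the level reached 0.5 FPKM (fragments scaled for gene length and library size) in at least 3 libraries, and these 43 were tested among 14838 genes. They comprise 14 subunits of the standard 20S core, 3 immunoproteasome subunits, 17 subunits of the 19S cap, 3 chaperones that assemble the cap, 5 activator genes and Psmc3ip, which carries a similar name without being a subunit. Psma8 and Psmb11, which did not reach it, are core subunits known from testis and thymus.

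The libraries came from bulk RNA of subcutaneous tumours of Lewis lung carcinoma (LLC), a mouse lung carcinoma line, grown in C57BL/6J mice labelled as wild type (WT) for genotype. The mice were injected at 6 weeks of age, were assigned to groups after 3 days, and were killed on day 22 after injection according to the treatment protocol, while the design text speaks of day 21. Tumours of untreated mice gave 4 libraries (control 1 to 4) and tumours of mice given Ze-qi decoction (ZQD), a herbal decoction, at the high dose of 42.67 g/kg gave 3 (ZQD 1 to 3). The labels give 8 mice per group and do not say that each library is a separate mouse. A p-value here therefore sets the difference between groups against the spread among these samples, and that spread may be technical.

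The proteasome is the cell's main protease for proteins tagged with ubiquitin. Its 20S core is a barrel of outer alpha rings and inner beta rings, 3 of whose beta subunits cut peptide bonds, and its 19S cap recognises, unfolds and feeds in tagged proteins. Interferon gamma and the leukocyte lineage are known to replace the cutting subunits by those of the immunoproteasome and to raise the PA28 activator, which favours peptides for presentation on MHC class I. In a tumour, carcinoma cells and infiltrating leukocytes both contribute proteasome transcripts.

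Depth ranged from 32065288 to 49914394 reads over the 4 control libraries and from 34765330 to 38673663 over the 3 ZQD libraries. Mitochondrial genes took 5.18% to 7.96% of reads in control and 8.78% to 11.1% in ZQD, so these shares did not overlap. The labels call the samples tumour cells, but markers of other cells were present: 7 macrophage genes summed to 712 to 909 FPKM in control and 818 to 1018 in ZQD. The epithelial and carcinoma markers Krt8, Krt18, Krt19, Epcam and Cdh1 were sparse, with 2 of 5 passing the filter and sums of 9.07 to 33.3 FPKM in control and 7.21 to 21.0 in ZQD. In bulk RNA, fewer cells of a type and less RNA per cell cannot be told apart.

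Between treated and untreated tumours, the log2 fold changes of the 43 genes ran from -0.30 (Psmb5) to 0.44 (Psma4). A gene that passes no threshold is not thereby shown to be unchanged, given 4 against 3 libraries. With a limma fit on log2(FPKM + 0.5) and Benjamini-Hochberg adjustment over all genes tested, 0 of the 43 genes passed an adjusted p of 0.05, as did 0.0% of all genes tested, and the smallest adjusted p among the 43 was 0.193, for Psma4. At an unadjusted p under 0.05, 3 genes were higher in ZQD (Psma4, Psmc1 and Psma5) beside 5.21% of all genes, and 3 were lower (Psmb5, Psmd3 and Psmb4) beside 10.3% of all genes. All 3 ZQD libraries lay above all 4 controls in 2 genes (Psma4 and Psma5; 5.35% of all genes did so), and below them in 2 (Psmb5 and Psmb4; 9.84% of all genes). Of the 43 genes, 19 had a higher and 24 a lower mean in ZQD, beside 6202 higher and 8636 lower of all genes tested. The median log2 fold change was -0.01 beside -0.04 over all genes tested. The shares at an unadjusted p under 0.05 and with groups apart are near the background over all genes. The background itself moved with scaling, from 773 higher and 1533 lower of all genes at an unadjusted p under 0.05 to 1097 and 1082 with median-of-ratios scaling, 1153 and 1045 without mitochondrial genes in the totals, and 377 and 2861 on the TPM scale (FPKM rescaled so that each library has the same sum). Leaving out each of the 7 libraries in turn left 1 to 3 genes higher and 0 to 2 lower at an unadjusted p under 0.05, with 1 and 0 when control 4 was left out and 1 and 1 when ZQD 1 or ZQD 3 was. Over all genes the same fits gave 595 to 820 higher and 1101 to 1484 lower.

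Count tests were run on reads rebuilt from the FPKM values, which came out whole in 100.0% of values. The quasi-likelihood test of edgeR called 0 proteasome genes after adjustment (0.0% of all genes). At an unadjusted p under 0.05 it had 4 higher (Psma4, Psma5, Psmc1 and Psmd5; 7.65% of all genes) and 0 lower (7.33% of all genes), so Psmb5, Psmb4 and Psmd3 no longer passed. DESeq2 called 1, Psma4, where it called 4.13% of all genes with an adjusted p (517 of 12525), and it too had the same 4 proteasome genes higher at an unadjusted p under 0.05 (8.01% of all genes) and 0 lower (7.65% of all genes). The balance of directions followed the scaling: under DESeq2 and edgeR 32 of the 43 genes were higher and 11 lower, and on the TPM scale 10 were higher and 33 lower, while the median over all genes moved to -0.01 in both count tests and to -0.15 on the TPM scale. Relative to the median of all genes on the FPKM scale, 32 of 43 were above it, where 7419 of the 14838 genes tested are by definition. With mitochondrial genes left out of the library totals, 32 of the 43 were again higher and 11 lower. The 6 genes named above kept their direction under each of these scalings.

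**Figure D1:**
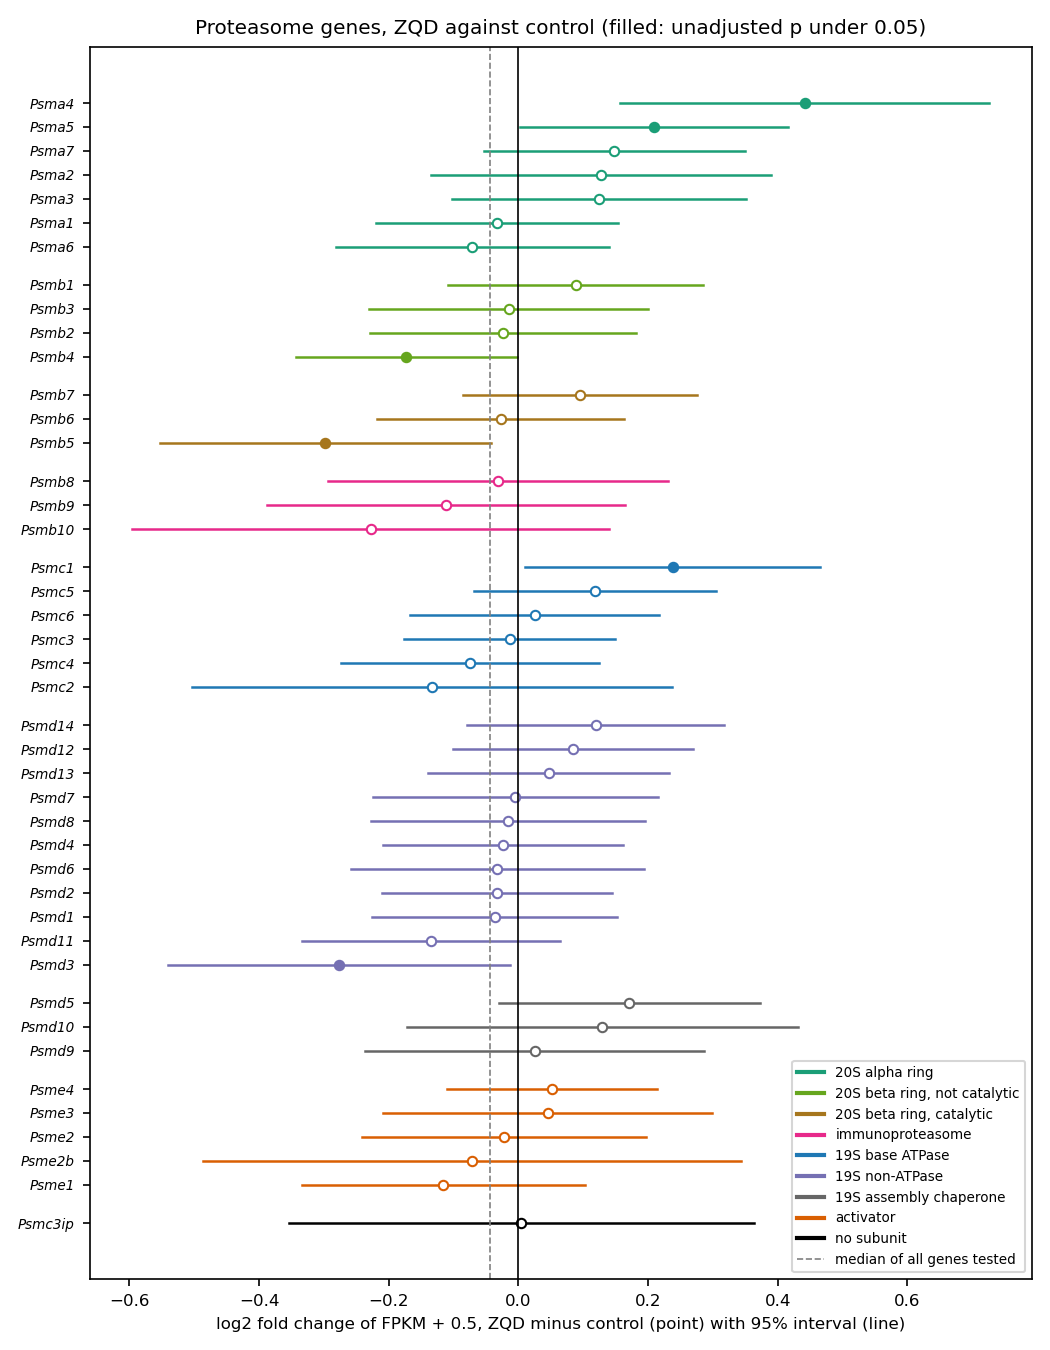
Log2 fold change of FPKM + 0.5, ZQD minus control (x axis), for the 43 proteasome genes tested (y axis, grouped by role), as points with 95% intervals from limma; filled points have an unadjusted p under 0.05, and the dashed line is the median of all genes tested (-0.04). Values run from -0.30 for Psmb5 to 0.44 for Psma4, and 37 of the intervals include 0.

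The genes varied little between libraries of 1 group. The median coefficient of variation among controls was 7.27% over the 43 genes, beside 13.0% over all genes tested. These sets were not matched for level, the median control FPKM being 34.1 for the 43 genes and 5.39 for all genes tested. Summed over the 43, FPKM was 1784, 1965, 1845 and 2015 in control 1 to 4 and 2001, 1875 and 1984 in ZQD 1 to 3, so the groups overlapped. Control 2 was the highest library for 14 of the 43 genes and control 4 for 12, while control 1 was the lowest for 15. Levels within the standard core, although each subunit is built in equal number into the barrel, ran from a mean over 7 libraries of 16.2 FPKM for Psma3 to 119 for Psmb2.

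The alpha ring forms the gated outer face of the core. Of its 7 genes, 5 were higher and 2 lower in ZQD and the median log2 fold change was 0.13 (0.03 on the TPM scale, with the same split, and 0.18 in both count tests, with 6 higher). Among them, 2 had an unadjusted p under 0.05, both higher (of all genes, 5.21% were higher and 10.3% lower at that p). Psma4 read 85.9, 99.5, 109.6 and 92.4 FPKM in control 1 to 4 and 147.5, 110.9 and 137.8 in ZQD 1 to 3. Every ZQD library was above every control, ZQD 2 by a narrow margin over control 3. The means were 96.8 ± 10.1 (SD, n = 4) and 132.1 ± 18.9 (SD, n = 3), a log2 fold change of 0.44 with a standard error of 0.12 (limma, unadjusted p = 0.00696, adjusted p = 0.193). DESeq2 on the rebuilt reads gave 0.49 (adjusted p = 0.0115), and leaving out each library in turn gave limma values from 0.36 to 0.56.

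Psma5 read 59.8, 68.1, 62.2 and 65.7 FPKM in the controls and 81.9, 68.9 and 71.5 in ZQD. ZQD 1 stood apart above the rest, and ZQD 2 was less than 1 FPKM above control 2. The log2 fold change was 0.21 with a standard error of 0.09 (limma, unadjusted p = 0.0482, adjusted p = 0.319). The least abundant alpha gene, Psma3, read 14.2, 16.0, 15.2 and 16.6 FPKM in control and 18.5, 17.5 and 14.9 in ZQD. Its groups overlapped, with a log2 fold change of 0.12 (95% interval -0.10 to 0.35). The others were Psma7 (0.15), Psma2 (0.13), Psma1 (-0.03) and Psma6 (-0.07), all log2 fold changes with an unadjusted p above 0.05.

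The 4 beta ring genes without a cutting site had 1 higher and 3 lower in ZQD and a median log2 fold change of -0.02, which became 0.02 with 3 higher in both count tests. Psmb4 read 33.7, 34.4, 33.5 and 34.9 FPKM in control and 31.8, 30.6 and 28.2 in ZQD. The controls lay within 2 FPKM of each other and every ZQD library was below them. The log2 fold change was -0.17 with a standard error of 0.07 (limma, unadjusted p = 0.0470, adjusted p = 0.316), and the unadjusted p was 0.155 in edgeR and 0.173 in DESeq2. The most abundant, Psmb2, read 111.1, 118.9, 116.3 and 133.2 FPKM in control and 122.7, 120.0 and 110.6 in ZQD, and its groups overlapped. The least abundant, Psmb3, read 18.5, 22.4, 20.5 and 21.9 FPKM in control and 19.02, 20.96 and 21.85 in ZQD, which overlapped too. Psmb1 had a log2 fold change of 0.09.

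**Figure D2:**
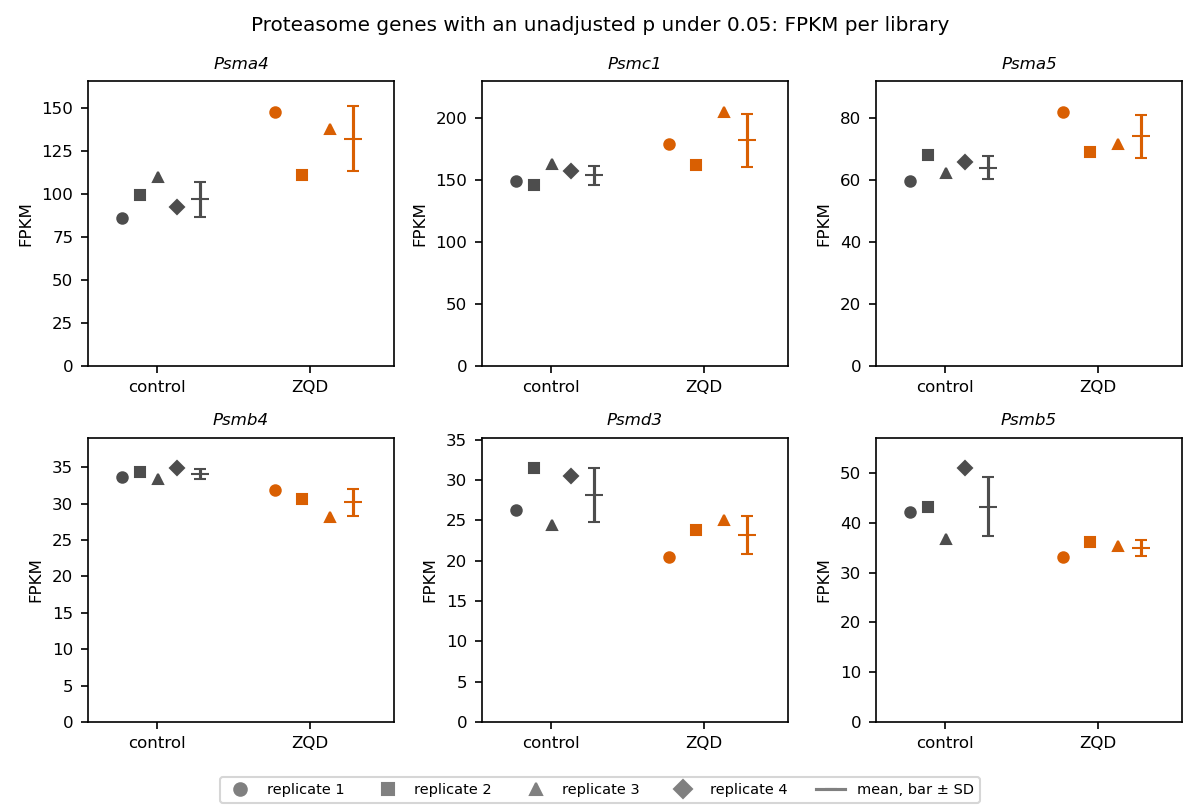
FPKM per library (y axis, from 0) of the 6 proteasome genes with an unadjusted limma p under 0.05, for the 4 control and 3 ZQD libraries (x axis); marker shape is the replicate number and the bar is mean ± SD. The groups are apart in Psma4, Psma5, Psmb4 and Psmb5, and overlap in Psmc1 and Psmd3.

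Psmb5, Psmb6 and Psmb7 are the cutting subunits of the standard core, with chymotrypsin-like, caspase-like and trypsin-like activity, and Psmb8, Psmb9 and Psmb10 take their places in the immunoproteasome. Psmb5 read 42.2, 43.2, 36.8 and 51.0 FPKM in control and 33.1, 36.2 and 35.5 in ZQD. The ZQD libraries lay close together below all controls, control 3 being less than 1 FPKM above ZQD 2. The means were 43.3 ± 5.85 (SD, n = 4) and 34.9 ± 1.595 (SD, n = 3), a log2 fold change of -0.30 with a standard error of 0.11 (limma, unadjusted p = 0.0271, adjusted p = 0.271), and the unadjusted p was 0.0527 in edgeR and 0.0555 in DESeq2. Psmb6 read 42.2, 41.8, 42.7 and 45.6 FPKM in control and 43.3, 38.5 and 45.2 in ZQD, and the groups overlapped. Psmb7 read 16.1, 16.1, 15.8 and 17.2 FPKM in control and 18.3, 17.7 and 16.3 in ZQD, where the highest values were treated ones but ZQD 3 fell among the controls. Their log2 fold changes were -0.03 and 0.10.

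Each of the 3 immunoproteasome genes had a lower mean in ZQD, with a median log2 fold change of -0.11, and none had an unadjusted p under 0.05. In both count tests, 1 of the 3, Psmb8, was on the higher side and the median stayed negative (-0.08). Psmb8 read 22.5, 30.4, 24.1 and 27.4 FPKM in control and 27.1, 25.6 and 23.5 in ZQD. The ZQD values lay inside the range of the controls, and the log2 fold change was -0.03 (95% interval -0.29 to 0.23). Psmb9 read 13.99, 18.7, 15.5 and 18.6 FPKM in control and 16.7, 14.7 and 14.6 in ZQD. These values also lay inside the control range, with a log2 fold change of -0.11 (95% interval -0.39 to 0.16). Psmb10 read 40.0, 42.7, 37.5 and 55.8 FPKM in control and 41.6, 30.2 and 40.5 in ZQD. Control 4 was high and ZQD 2 low while the others lay together, and the log2 fold change of -0.23 (95% interval -0.60 to 0.14) became -0.08 without control 4.

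The share of immunoproteasome transcripts was read as the ratio of each gene to the one it replaces within a library, which does not depend on library scaling. The ratio of Psmb8 to Psmb5 was 0.534, 0.704, 0.654 and 0.537 in control and 0.818, 0.706 and 0.664 in ZQD. ZQD 1 was the highest library and the other treated ones overlapped the controls, a difference of 0.27 on the log2 scale (exact two-sided permutation test over 35 assignments, p = 0.143, 0.214 adjusted over the 3 ratios). The ratio of Psmb10 to Psmb7 was 2.49, 2.66, 2.38 and 3.24 in control and 2.27, 1.71 and 2.49 in ZQD. It lay on the opposite side, by -0.33 on the log2 scale, again with overlap (exact permutation p = 0.114, adjusted 0.214). The ratio of Psmb9 to Psmb6 was 0.332, 0.448, 0.363 and 0.408 in control and 0.387, 0.381 and 0.323 in ZQD, a difference of -0.09 (exact permutation p = 0.514, adjusted 0.514). The smallest p these 7 libraries allow is 0.0286. In the Psmb8 ratio, Psmb5 rather than Psmb8 was the gene whose groups did not overlap.

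**Figure D3:**
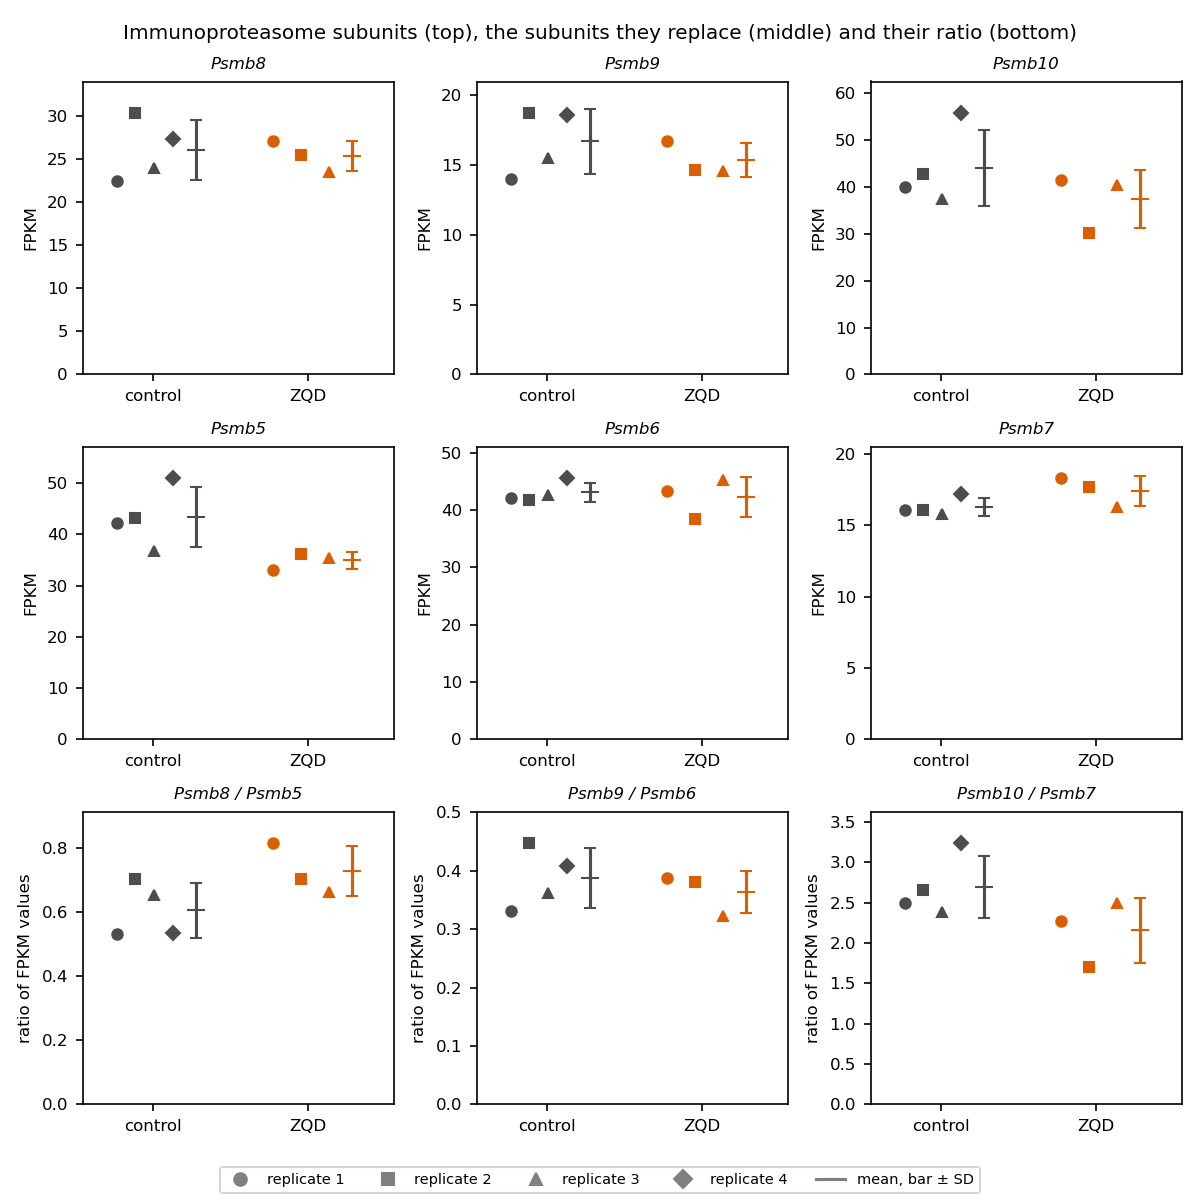
FPKM per library of the immunoproteasome genes (top row), of the standard subunits they replace (middle row) and the ratio of both within each library (bottom row), with axes from 0, marker shape for the replicate number and bars for mean ± SD. Only Psmb5 has groups that do not overlap, and the ratios of Psmb8 to Psmb5 and Psmb10 to Psmb7 differ in opposite directions (0.27 and -0.33 on the log2 scale) with overlapping groups.

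Leukocytes carry immunoproteasome subunits at rest, so markers of leukocytes were summed beside these genes. The 5 common leukocyte markers (Ptprc, Coro1a, Laptm5, Cd53 and Cd52) summed to 135 to 154 FPKM in control and 148 to 163 in ZQD. Of these, 3 were higher in ZQD and 2 (Coro1a and Cd52) lower, and 0 of the 5 had an unadjusted p under 0.05. The 7 T cell markers were sparse, with sums of 15.9 to 28.3 and 23.1 to 33.8 FPKM, and 7 of 7 had a higher mean in ZQD, 0 of them with an unadjusted p under 0.05. Of the 7 macrophage markers, whose sums are given above, 6 were higher and 2 of these, C1qb and Mrc1, had an unadjusted p under 0.05 and groups apart. Of all genes, 5.21% were higher at that p and 5.35% lay above all controls. Of the neutrophil markers, 5 of 5 tested were higher, with sums of 12.5 to 30.8 and 18.1 to 72.4 FPKM and 0 at an unadjusted p under 0.05. The 4 NK cell markers summed to 9.73 to 18.2 and 8.28 to 14.3 FPKM. Of the 2 tested, 1 was lower and 1, Klrk1, higher with groups apart (limma adjusted p = 0.193, DESeq2 adjusted p = 0.00528). Beside it, 5.35% of all genes lay above all controls, and DESeq2 called 4.13% of all genes with an adjusted p. The 5 dendritic cell markers summed to 20.3 to 34.8 FPKM in control and 11.4 to 26.1 in ZQD. Of these, 3 were lower, 1 of them at an unadjusted p under 0.05 (10.3% of all genes). The other 2 were higher, 1 of them above all controls (5.35% of all genes). Of 4 B cell markers, 1 was tested and was higher, and the sums were 0.666 to 1.84 and 1.21 to 1.64 FPKM. No marker of these lists was listed at 0 in all libraries. Their part in the levels of Psmb8, Psmb9 and Psmb10 was not tested.

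The base of the 19S cap holds a ring of 6 ATPases that unfold substrates. Of these genes 3 were higher and 3 lower in ZQD, and the median log2 fold change was 0.01 (0.05 in both count tests and -0.10 on the TPM scale). Psmc1, the most abundant proteasome gene by mean FPKM over the 7 libraries (165.8), read 148.7, 146.1, 162.7 and 157.0 FPKM in control and 178.8, 162.2 and 204.8 in ZQD. ZQD 1 and ZQD 3 lay above all controls, and ZQD 2 was just below control 3. The means were 153.6 ± 7.63 (SD, n = 4) and 182.0 ± 21.5 (SD, n = 3), a log2 fold change of 0.24 with a standard error of 0.10 (limma, unadjusted p = 0.0421, adjusted p = 0.307). The least abundant ATPase gene, Psmc2, read 16.6, 14.9, 15.03 and 21.4 FPKM in control and 17.1, 12.2 and 16.99 in ZQD, with control 4 high, ZQD 2 low and the groups overlapping. The remaining log2 fold changes were 0.12 for Psmc5, 0.03 for Psmc6, -0.01 for Psmc3 and -0.07 for Psmc4.

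The 11 non-ATPase subunits of the cap include the ubiquitin receptors and the enzyme Psmd14 that removes ubiquitin chains. Of these, 3 were higher and 8 lower in ZQD, and the median log2 fold change was -0.02, a split that turned to 9 higher and 2 lower, with a median of 0.02, in both count tests. Psmd3, a lid scaffold subunit, read 26.3, 31.5, 24.5 and 30.5 FPKM in control and 20.5, 23.9 and 25.1 in ZQD. Controls 2 and 4 were highest and ZQD 1 lowest, and ZQD 3 overlapped control 3. The log2 fold change was -0.28 with a standard error of 0.12 (limma, unadjusted p = 0.0420, adjusted p = 0.307), and the unadjusted p was 0.0750 in edgeR and 0.0738 in DESeq2. Psmd8, the most abundant of them, read 71.5, 74.5, 72.2 and 80.9 FPKM in control and 72.7, 82.2 and 67.5 in ZQD, and Psmd11, the least abundant, 16.5, 17.1, 15.7 and 18.6 in control and 14.4, 16.1 and 15.7 in ZQD. Both overlapped between groups.

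Among the other non-ATPase genes, Psmd14 (0.12), Psmd12 (0.08) and Psmd13 (0.05) had higher means in ZQD on the log2 scale. Psmd4, the cap's classical ubiquitin receptor, had a log2 fold change of -0.02, and Psmd2 and Psmd1, the large scaffold subunits, of -0.03 and -0.04. Psmd7, the partner of Psmd14, stood at -0.005, and Psmd6 at -0.03. None of these 8 had groups that were apart. Over all 17 cap subunits 6 were higher and 11 lower on the FPKM scale. In each direction 1 had an unadjusted p under 0.05 (5.21% of all genes higher and 10.3% lower).

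The chaperones Psmd5, Psmd9 and Psmd10 bind the ATPases during assembly of the base and leave the finished particle. All 3 had a higher mean in ZQD (median log2 fold change 0.13; on the TPM scale 0.03, with 2 higher), and none had an unadjusted p under 0.05 in limma. Psmd5 had 6.89, 6.70, 6.49 and 7.31 FPKM in control and 7.69, 8.40 and 7.24 in ZQD, where ZQD 3 was just below control 4 and the other treated libraries above all controls. Its log2 fold change was 0.17 (95% interval -0.03 to 0.37), and edgeR on the rebuilt reads gave an unadjusted p of 0.0362. Psmd10 had 15.2, 13.4, 16.5 and 14.7 FPKM in control and 20.2, 15.6 and 13.9 in ZQD, with ZQD 1 alone above the controls. Psmd9 was the least abundant gene tested here, with 2.78, 3.18, 2.55 and 3.27 FPKM in control and 2.84, 2.87 and 3.28 in ZQD.

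The activators open the gate of the core without ubiquitin. Psme1 and Psme2 encode the 2 chains of PA28, which interferon gamma induces, Psme3 a related nuclear activator, and Psme4 the large activator PA200. Of the 5 genes, 2 were higher and 3 lower in ZQD, and the median log2 fold change was -0.02, which became 0.02 with 3 higher in both count tests and -0.12 with 0 higher on the TPM scale. Psme1 read 94.3, 119.9, 104.3 and 110.9 FPKM in control and 100.8, 96.4 and 98.9 in ZQD. The treated libraries lay close together in the lower part of the control range, and the log2 fold change was -0.12 (95% interval -0.33 to 0.10). Psme2 read 67.6, 82.0, 68.4 and 71.0 FPKM in control and 73.7, 65.3 and 74.1 in ZQD, and Psme3 63.3, 78.7, 62.3 and 67.1 in control and 63.4, 68.4 and 78.1 in ZQD. Both overlapped throughout, with control 2 the highest library, as it was for Psme1, Psmb8 and Psmb9.

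Psme4 had the narrowest spread of the activators, with 20.7, 19.3, 20.1 and 20.5 FPKM in control and 20.5, 20.8 and 21.4 in ZQD. Its log2 fold change was 0.05 (95% interval -0.11 to 0.21). The ratio of Psme1 to Psme3, the interferon-inducible activator to the nuclear one, was 1.49, 1.52, 1.67 and 1.65 in control and 1.59, 1.41 and 1.27 in ZQD. ZQD 2 and ZQD 3 were below all controls and ZQD 1 among them, a difference of -0.16 on the log2 scale (exact two-sided permutation test, p = 0.143). This ratio was compared apart from the 3 ratios of cutting subunits and its p is not adjusted.

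**Figure D4:**
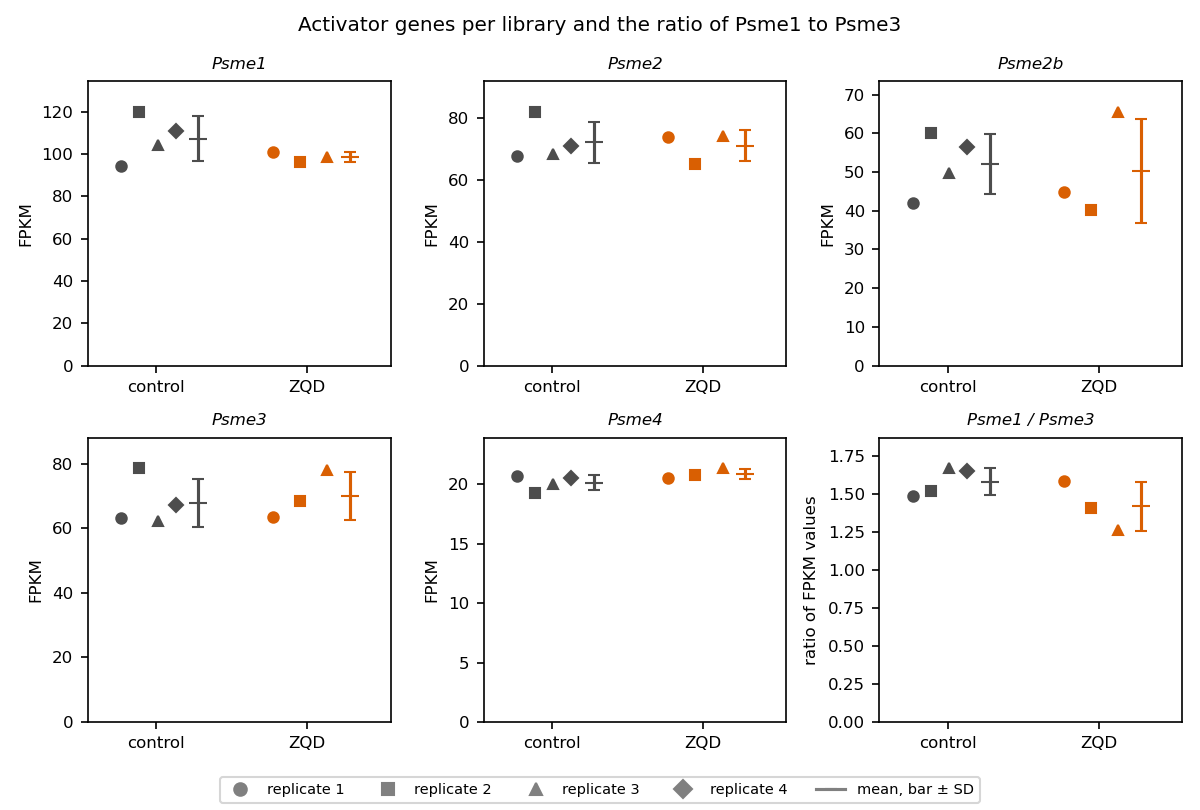
FPKM per library of the 5 activator genes and the ratio of Psme1 to Psme3 within each library (y axes from 0), for control and ZQD (x axes), with marker shape for the replicate number and bars for mean ± SD. All 6 panels have overlapping groups, and control 2 is the highest library in the panels of Psme1, Psme2 and Psme3.

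Psme2b is a near-identical copy of Psme2 on chromosome 11, while Psme2 is on chromosome 14. It read 42.1, 59.9, 49.8 and 56.35 FPKM in control and 44.8, 40.3 and 65.5 in ZQD, with ZQD 3 highest and ZQD 2 lowest. Reads of both genes can hardly be told apart, since their coding sequences differ at 5 of 717 aligned bases in the GENCODE M21 transcripts. The stretch of coding bases 469 to 543 of Psme2, which holds the most differences of any 75 bases, shows how alike they are, with the differing bases in capitals.
Psme2: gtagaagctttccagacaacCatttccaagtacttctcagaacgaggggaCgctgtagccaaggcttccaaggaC
Psme2b: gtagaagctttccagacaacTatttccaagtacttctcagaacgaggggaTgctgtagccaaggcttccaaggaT
Psme2b took 25.4% of the reads of the pair in control and 24.85% in ZQD. Together they had 154.6, 194.8, 162.3 and 172.4 RPM (reads scaled to the library total) in control and 167.6, 148.9 and 185.6 in ZQD, which overlapped as each gene did alone.

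Similar copies lay beside other subunits. A copy was counted where at least 400 bases aligned at 95% identity or more. Its mean level had to be at least 1 FPKM, without overlap with the gene. With Psme2b taken as the copy of Psme2 and not the reverse, 8 proteasome genes had 10 such copies. Psma3 and the processed pseudogene Gm13835, on chromosomes 12 and 6, are identical over all 662 aligned coding bases. Their shared sequence is shown by coding bases 104 to 178 of Psma3, within which a read cannot be assigned to either gene.
Psma3 and Gm13835: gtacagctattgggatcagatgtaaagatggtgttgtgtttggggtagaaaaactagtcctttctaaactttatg
Gm13835 was given 34.5% of the reads of the pair in control and 36.0% in ZQD, so the level of Psma3 alone is uncertain. With the copy added, Psma3 had 84.1, 97.3, 91.9 and 95.9 RPM in control and 116.5, 107.4 and 87.8 in ZQD. ZQD 1 and ZQD 2 were then above all controls and ZQD 3 among them.

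For Psma5, the copies Gm8394 and Gm12989 took 11.9% of the combined reads in control and 11.6% in ZQD. Gm12989 differs from Psma5 at 7 of 723 coding bases apart from gaps, and coding bases 254 to 328 are shown because they hold 3 of these differences, in capitals.
Psma5: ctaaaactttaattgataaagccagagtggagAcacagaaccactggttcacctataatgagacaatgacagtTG
Gm12989: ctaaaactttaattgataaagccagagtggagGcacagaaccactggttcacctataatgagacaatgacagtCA
With both copies added, Psma5 had 89.0, 103.9, 92.6 and 98.0 RPM in control and 122.3, 103.6 and 106.1 in ZQD. The groups, apart for Psma5 alone, then overlapped between control 2 and ZQD 2, and the limma log2 fold change was 0.20 (unadjusted p = 0.0582, adjusted p = 0.336). Psma4, whose copy Gm6542 took 4.96% of reads in control and 3.52% in ZQD, kept its groups apart with the copy added (limma log2 fold change 0.42, unadjusted p = 0.00868, adjusted p = 0.197). Psmb5 did so as well with Gm3375 added (limma log2 fold change -0.30, unadjusted p = 0.0229, adjusted p = 0.258).

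**Figure D5:**
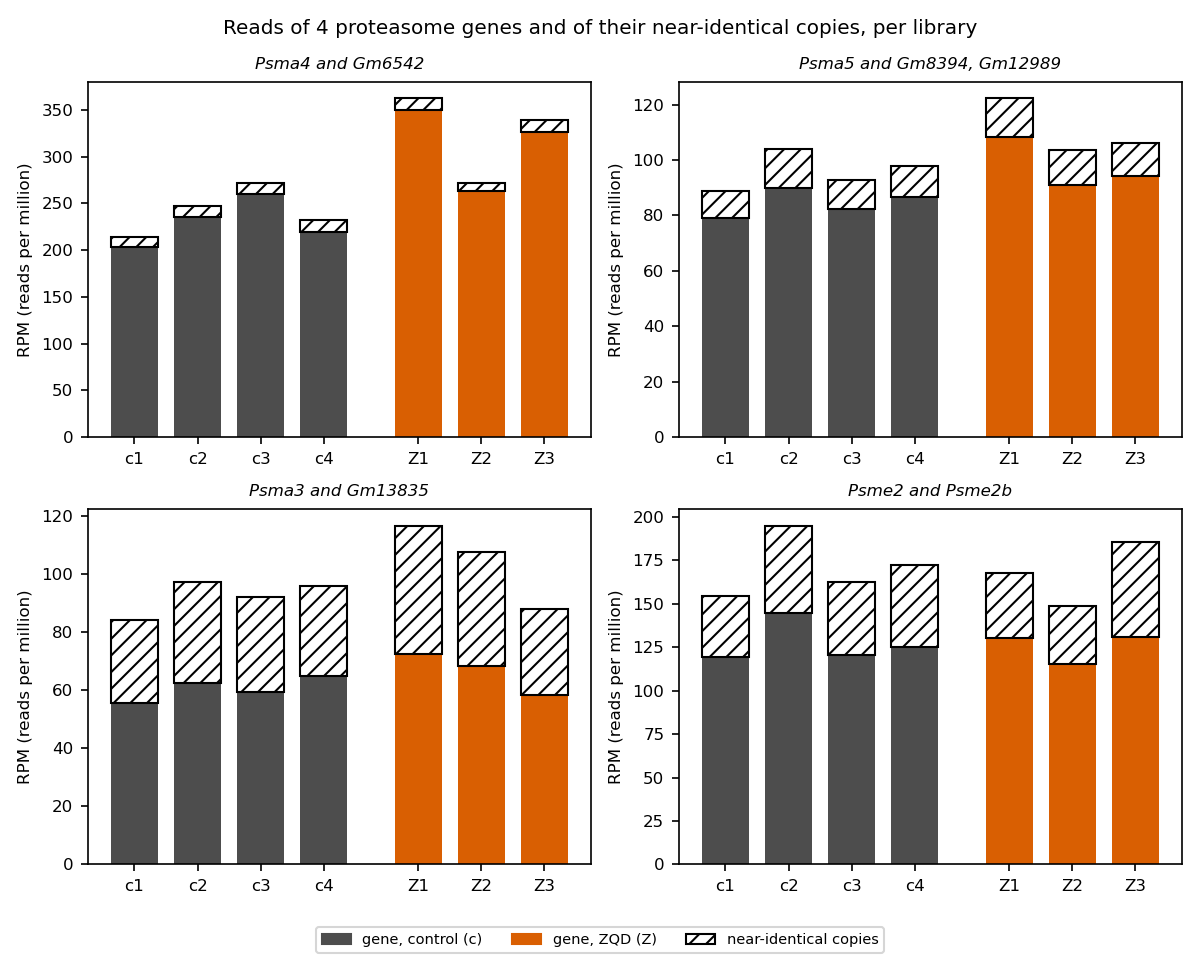
RPM, reads scaled to the library total (y axis, from 0) of 4 proteasome genes (filled bars) with the reads of their near-identical copies stacked on top (hatched), in control 1 to 4 (c1 to c4) and ZQD 1 to 3 (Z1 to Z3). The copies are a thin layer on Psma4, on average 11.9% and 11.6% of the Psma5 bars in control and ZQD, and on average 34.5% and 36.0% of the Psma3 bars.

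Other genes share exon bases with neighbours on the opposite strand, and the sources used here do not give the strand setting of the counting. Psmb9 overlaps Tap1, a peptide transporter gene with a control mean of 35.5 ± 6.19 FPKM (SD, n = 4), over 212 bases. Psmc3 overlaps Slc39a13 over 215 bases and Psmc3ip overlaps Mlx over 385 bases. Among the others, Psmb7 overlaps Nek6 over 405 bases and Psmd13 overlaps Sirt3 over 342. The longest overlaps were those of Psmd9 with Gm26745 (1849 bases) and Psmb8 with Gm20496 (498 bases), neighbours without expression values here. Psmb7, Psmb8 and Psmb9 are part of the ratios given above. Psmc3ip, a partner of meiotic recombinases that is no proteasome subunit, read 3.57, 5.72, 3.71 and 4.97 FPKM in control and 4.55, 4.35 and 4.38 in ZQD. The core subunits of testis and thymus were near 0: Psma8 had at most 0.348 FPKM in any library, and Psmb11 was listed at 0 in 5 of 7 and had at most 0.0215 FPKM.

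The promoters of 38 of the 45 genes were found in the RefSeq windows of 300 bases on GRCm38.p6 (250 bases before to 50 after a start site) and were searched on both strands for letters known from the factors that regulate these genes. The interferon regulatory factor pattern is a pair of GAAA with 2 bases of any kind between them. It occurred in 4 of 38 genes (10.5%, beside 3.99% of all genes with a window), namely Psmb3, Psmd4, Psmd9 and Psme1. In Psme1 it begins 9 bases after the start site, and the windows of Psmb8 and Psmb9 held no match to it. The pattern TTCNNNGAA, bound by STAT factors, occurred in 2 (5.26%; 9.55% of all genes), Psmb8 and Psmd2. The antioxidant response core TGACNNNGC occurred in 6 (15.8%; 13.99% of all genes), one of them Psmb5, and CCAAT in 15 (39.5%; 41.1% of all genes). A match describes letters and shows no binding. The matches upstream of Psmb8, the immunoproteasome gene with the smallest difference, and of Psmb5, the standard subunit it replaces, are shown with the pattern in capitals, each read along the strand of its gene.
Psmb8, chr17:34198083-34198121, plus strand, match beginning 97 bases upstream: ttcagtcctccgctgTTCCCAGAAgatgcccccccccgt
Psmb5, chr14:54618019-54618057, minus strand, match beginning 47 bases upstream: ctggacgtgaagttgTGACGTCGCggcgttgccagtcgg

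Genes that act with the proteasome but lie outside the name pattern were taken from 3 lists. Of 30 tested partners (assembly factors, receptors, shuttles and regulators), 13 were higher and 17 lower in ZQD, with a median log2 fold change of -0.03 beside -0.04 over all genes, 2 at an unadjusted p under 0.05 in each direction (5.21% of all genes higher and 10.3% lower) and 0 after adjustment. In both count tests 16 were higher and 14 lower. Every ZQD library lay above all controls in 3 of the 30 partners (5.35% of all genes) and below them in 3 (9.84% of all genes). Pomp, the maturation factor of the core, read 23.4, 27.2, 26.5 and 27.9 FPKM in control and 33.3, 30.8 and 31.0 in ZQD, every treated library being above the controls (log2 fold change 0.27, limma adjusted p = 0.218). Uchl5, a deubiquitinase of the cap, read 23.3, 36.6, 27.1 and 24.9 FPKM in control and 36.9, 36.6 and 37.8 in ZQD. The treated libraries were nearly equal, and control 2 reached almost to them (log2 fold change 0.42, adjusted p = 0.246).

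Adrm1, the ubiquitin receptor that holds Uchl5 on the cap, lay on the other side, with 21.1, 18.5, 18.96 and 22.3 FPKM in control and 16.9, 16.1 and 17.7 in ZQD, and no overlap (log2 fold change -0.25, limma adjusted p = 0.265). Rad23b, a shuttle that brings tagged proteins to the cap and the most abundant gene on this list, was at 190.7 ± 10.1 FPKM (SD, n = 4) and 194.0 ± 9.87 (SD, n = 3). Nfe2l2, a stress transcription factor and the second most abundant on this list, was at 71.1 ± 5.70 and 64.8 ± 4.52 FPKM.

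Of the 6 genes for ubiquitin and its activating enzymes, 2 were higher and 4 lower, the median log2 fold change being -0.15. The median stayed negative under each scaling (-0.10 in both count tests, and -0.25 with 0 higher on the TPM scale). Ubb, a gene for a chain of ubiquitin repeats and the most abundant of them, read 341.8, 335.5, 353.4 and 379.5 FPKM in control and 338.3, 264.7 and 294.2 in ZQD. ZQD 1 lay among the controls and the others below (log2 fold change -0.24, limma adjusted p = 0.323). Uba1, the main activating enzyme, was at 85.5 ± 6.06 and 82.2 ± 6.23 FPKM, and Uba6 and Rps27a had log2 fold changes of 0.05 and 0.04.

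Of 20 genes of peptide loading and its regulators, 9 were higher and 11 lower, the median log2 fold change being -0.03, 2 at an unadjusted p under 0.05 in each direction (5.21% of all genes higher and 10.3% lower) and 0 after adjustment. In both count tests 11 were higher and 9 lower. Socs1, an inhibitor of interferon signalling, read 5.48, 5.86, 4.67 and 6.37 FPKM in control and 3.70, 3.33 and 4.11 in ZQD, without overlap (log2 fold change -0.53, limma adjusted p = 0.155; DESeq2, adjusted p = 0.0204). Ifngr1, a chain of the interferon gamma receptor, read 26.9, 26.7, 26.3 and 17.4 FPKM in control and 35.8, 29.0 and 32.4 in ZQD, with control 4 low and no overlap (log2 fold change 0.42, adjusted p = 0.280). Tapbp, which edits peptides on MHC class I, read 82.2, 82.4, 62.3 and 80.5 FPKM in control and 60.8, 56.95 and 62.9 in ZQD, and control 3 fell among the treated libraries (log2 fold change -0.34, adjusted p = 0.236). Irf2, a regulator of interferon-responsive genes, had a log2 fold change of 0.20 without overlap (adjusted p = 0.287). Every ZQD library lay above all controls in 2 of the 20 genes (5.35% of all genes) and below them in 2 (9.84% of all genes). DESeq2 called 1 gene of this list, Socs1, where it called 4.13% of all genes with an adjusted p. The most abundant genes of this list, B2m at 4819 ± 292.3 and 4969 ± 888.1 FPKM and the chaperone Calr at 464.0 ± 8.93 and 453.2 ± 43.2 FPKM, overlapped between groups.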

How the data were processed

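Poly(A) RNA of 7 tumour libraries (4 control, 3 ZQD) was sequenced as paired ends, with 2 platforms named and none assigned to a library. The submitters' processing notes name HISAT2, featureCounts, Subread and DESeq2 without versions or roles, and they name no genome build. The authors deposited FPKM values for all 7 libraries and gene counts for 2 (control 1 and 2). Ensembl IDs were paired with symbols for 98.0% of genes. The FPKM fell on steps of whole reads (within 0.05 of a whole number), so reads were rebuilt for the 27421 genes whose length the count tables gave. The members and lists were chosen with earlier results of these data known.

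Log2(FPKM + 0.5) was fitted with limma 3.58.1 (two-sided, trend), and p-values were adjusted by Benjamini-Hochberg over the 14838 genes with at least 0.5 FPKM in at least 3 libraries. The rebuilt reads were also fitted with edgeR 4.0.16 and with DESeq2 1.42.0. The main limma fit and both count tests were tried on simulated data, and the alternative settings were not. Values per library are given for the cutting subunits and their replacements, the activators, each gene with an unadjusted p under 0.05 and the most and least abundant gene of each class. From each further list the text names the 2 genes of smallest p in each direction and the 2 most abundant, except 2 genes that are not reported here. Near-identical copies were found with BLAST 2.17.0 in GENCODE M21 transcripts, whose union exon lengths equal the rebuilt ones for all 45 genes. Alternatives were other pseudocounts, filters and scalings, both count tests, a replicate block, leaving out each library and, chosen after seeing the data, adding the reads of the copies.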

Additional observations from a re-analysis of the deposited data

Results flagged for a closer look

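Among the controls, 47 values (43 genes and 4 ratios) were examined for a library far from the other 3, and 1 stood out: Psmd6, a subunit of the cap, had 16.5 FPKM in control 1 beside 19.2, 19.4 and 19.5 in the others. Chance alone sets apart about 1 in 20 such groups. The treated libraries had 18.9, 16.3 and 19.6 FPKM.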

How the results depend on the processing

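limma called 0 genes under every setting tried except the replicate block, which called 1 gene of all tested and no proteasome gene; edgeR called 0 (2221 at an unadjusted p under 0.05) and DESeq2 517. Deviations of libraries with the same replicate number correlated at 0.252, 0.0998 and -0.150, and those with different numbers at -0.295 to 0.255. These values overlap, so they cannot decide whether the replicate numbers pair the libraries. On the TPM scale the median log2 fold change became -0.065 for the standard core and -0.119 for the 19S subunits, beside -0.15 for all genes. Otherwise the medians of the core, the immunoproteasome, the 19S cap and the activators moved by less than the spread between replicates, and the 4 ratios kept their direction; with 1 library left out, their exact test cannot reach 0.05. Proteasome genes at an unadjusted p under 0.05 numbered 1 higher and 5 lower on the TPM scale (all genes 377 and 2861), 4 and 0 in edgeR (1134 and 1087) and DESeq2 (1188 and 1134), 4 and 1 without mitochondrial genes in the totals (1153 and 1045), 2 and 0 with the replicate block (596 and 1192), 1 and 1 without the variance trend (788 and 1452), and 2 and 3 with the copies added (772 and 1533). With the copies added, 42 proteasome genes were tested, since Psme2b was joined to Psme2. Even the least abundant gene tested had a mean of 2.97 FPKM, and the number of libraries, 4 against 3, limits the precision.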
